A study of Mus musculus with 48 samples.

Results

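The EGF family genes followed here are 5 ligands (Egf, Hbegf, Areg, Ereg and Tgfa) and 4 receptors (Egfr, Erbb2, Erbb3 and Erbb4), chosen by name from the 14320 gene features of renal cortex, and all 9 were present. They were followed in male C57BL/6 mice aged 6 to 8 weeks whose left renal pedicle was clamped for 20 minutes (20-min IRI, the mild model) or 40 minutes (40-min IRI, the severe model). Cortex of the left kidney (IRI) and of the right kidney (self-control) was sequenced 1 or 3 days after injury, with 6 kidneys in each of 8 groups and 48 libraries from 24 mice. Mice are numbered 1 to 6 within each ischemia time and day, and values are given in that order. All groups share strain, sex and anesthesia with sodium pentobarbital, and none carries a genetic change. The methods say that the right kidney was removed before the clamp, whereas the labels give it the day of its left kidney, so the time at which the self-controls were taken is unclear. Ischemia, the operation and the loss of the other kidney therefore cannot be told apart in any comparison with self-controls.

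EGF family ligands are made as membrane proteins, are cut loose by ADAM proteases and bind receptor tyrosine kinases of the ERBB family, which pair up and start the RAS-ERK and PI3K-AKT cascades. Egfr binds Egf, Tgfa, Areg, Hbegf and Ereg, Erbb4 also binds Hbegf, Ereg and the neuregulins, Erbb3 binds neuregulins with little kinase activity of its own, and Erbb2 has no known ligand and serves as a partner. In the kidney, Egf is made by the thick ascending limb and the distal convoluted tubule and is shed into urine, while Egfr signaling in the proximal tubule is known for its part in repair after injury.

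The ligands share a stretch with 6 cysteines that form the EGF fold, known as the part that binds the receptor. A search of the translated transcripts for 6 cysteines with the spacing of that fold found it once in each of the 5 ligands and in none of the deposited receptor transcripts. Its coding sequence is shown for 4 ligands because it is what these otherwise different genes have in common, with the cysteine codons in capitals, from GENCODE M21 transcripts on GRCm38 and written 5′ to 3′ in the sense of the gene.
Egf-201, residues 982 to 1018 of 1217: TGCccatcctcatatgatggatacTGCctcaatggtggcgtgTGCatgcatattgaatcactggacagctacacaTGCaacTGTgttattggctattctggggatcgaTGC
Tgfa-201, residues 46 to 81 of 159: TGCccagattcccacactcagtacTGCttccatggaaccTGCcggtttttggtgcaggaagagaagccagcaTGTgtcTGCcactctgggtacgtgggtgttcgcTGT
Areg-201, residues 139 to 174 of 248: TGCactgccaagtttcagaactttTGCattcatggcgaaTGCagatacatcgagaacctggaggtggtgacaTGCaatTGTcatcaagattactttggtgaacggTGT
Ereg-201, residues 61 to 96 of 162: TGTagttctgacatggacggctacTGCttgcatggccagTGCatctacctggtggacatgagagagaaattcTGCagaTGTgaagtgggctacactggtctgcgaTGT
Between these 4 stretches, 33.3% (Areg and Ereg) to 44.4% (Egf and Ereg) of 36 aligned residues were the same, the 6 cysteines included. Egf lies at chr3:129677565-129755316 on the minus strand, Tgfa at chr6:86195223-86275719, Ereg at chr5:91074622-91093646 and Areg at chr5:91139599-91148432 on the plus strand, so that Ereg and Areg lie on the same strand of chromosome 5.

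The promoter of Areg is shown because this gene, listed at 0 in nearly all self-control kidneys, had signal in every kidney after 40-min IRI. The 250 bases before its start in RefSeq (GRCm38.p6, chr5:91139349-91139598, plus strand, 5′ to 3′) hold the cAMP response element TGACGTCA and a TATA box, TATAAA, both in capitals, which begin 61 and 31 bases before the start.
Areg: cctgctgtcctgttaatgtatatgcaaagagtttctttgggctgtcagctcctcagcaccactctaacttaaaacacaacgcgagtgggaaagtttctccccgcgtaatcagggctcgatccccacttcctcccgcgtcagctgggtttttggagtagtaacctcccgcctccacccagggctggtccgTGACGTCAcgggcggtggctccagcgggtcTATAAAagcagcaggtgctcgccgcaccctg
Of 32851 mouse promoters of this length, 1.55% hold TGACGTCA and 12.37% hold TATAAA on either strand, searched together with the AP-1 site TGANTCA (6.75%) and CCAAT (33.85%). Promoters of 6 of the 9 members were in the table. Neither window of Egf, before Egf-201 or before Egf-209, held any of these 4 motifs, and only Erbb2 held 1 CCAAT among the other members. These are matches of letters, not binding sites.

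Values are FPKM, fragments scaled to transcript length and library size, which the authors deposited per transcript and which were summed per gene here. Levels of different genes can be compared on this scale because it is per length. From the steps between low values, the libraries hold an estimated 9360000 to 15980000 read pairs, a rough figure because a median of only 45.05% of low values per library lay within 0.1 of a whole read pair. Every deposited transcript reaches 0.5 FPKM in at least 1 library. Areg reached that level in 9 and Ereg in 1 of the 48 kidneys, all of them IRI kidneys, so these 2 genes are in the table only through the groups in which they were high. A difference was thus a condition of their being listed, and their values are given as a description, with no p. Renal cortex markers were present in the self-controls, where the summed level of 7 proximal tubule markers was 2187 to 2744 FPKM over 24 kidneys. Differences below are on the scale of log2(FPKM + 0.01) with limma, p was adjusted by Benjamini-Hochberg over all genes tested. A called gene has both an adjusted p below 0.05 and a change of 2-fold or more.

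In self-control cortex the family was dominated by Egf. Its level over the 24 self-control kidneys was 187 to 367 FPKM with a median of 263, above every value of the other 8 members. Erbb3 followed with 10.2 to 22.1 FPKM (median 16.2). Hbegf (6.10 to 15.7 FPKM, median 10.9), Egfr (6.59 to 11.8, median 8.97) and Erbb2 (3.39 to 16.9, median 7.38) overlapped in their ranges. Erbb4 (0.897 to 4.54 FPKM, median 2.07) and Tgfa (0.753 to 1.99, median 1.52) were lower. Areg and Ereg were listed at 0 in 22 of 24 self-control kidneys each, and their highest self-control values were 0.068 and 0.023 FPKM. Genes used by every cell were not listed at 0 in any library (12 checked).

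On day 1 after 40-min IRI, Egf fell, Hbegf rose, and the receptors and Tgfa were not called. Of 9 members, 3 (Areg, Ereg and Hbegf) were past the thresholds upward and 1 (Egf) downward, where 15.7% of 14276 genes were called higher and 7.39% lower. On day 3, 2 members (Areg and Ereg) were past them upward and 1 (Egf) downward, beside 15.3% of 14270 genes higher and 5.98% lower. As Areg and Ereg were listed through their IRI kidneys, nothing is read from these counts, and among genes of a mean of at least 1 FPKM only Hbegf on day 1 was left on the higher side. After 20-min IRI no member was called in either direction on day 1, when 1.19% of 14238 genes were called higher and 0.442% lower, or on day 3, with 2.34% of 14247 higher and 1.73% lower. There, 2 of 9 members on day 1 and 2 of 8 on day 3 had an unadjusted p under 0.05. Over all genes these were 3714 of 14238 and 4453 of 14247, so nothing is read from the members. Ereg was below the filter on low values in the 20-min comparison of day 3 and was not tested. When every library was set to the same median, the calls over all genes moved from 2244 higher and 1055 lower to 1723 and 1433 on day 1 after 40-min IRI, and from 170 and 63 to 148 and 98 on day 1 after 20-min IRI.

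**Figure D1:**
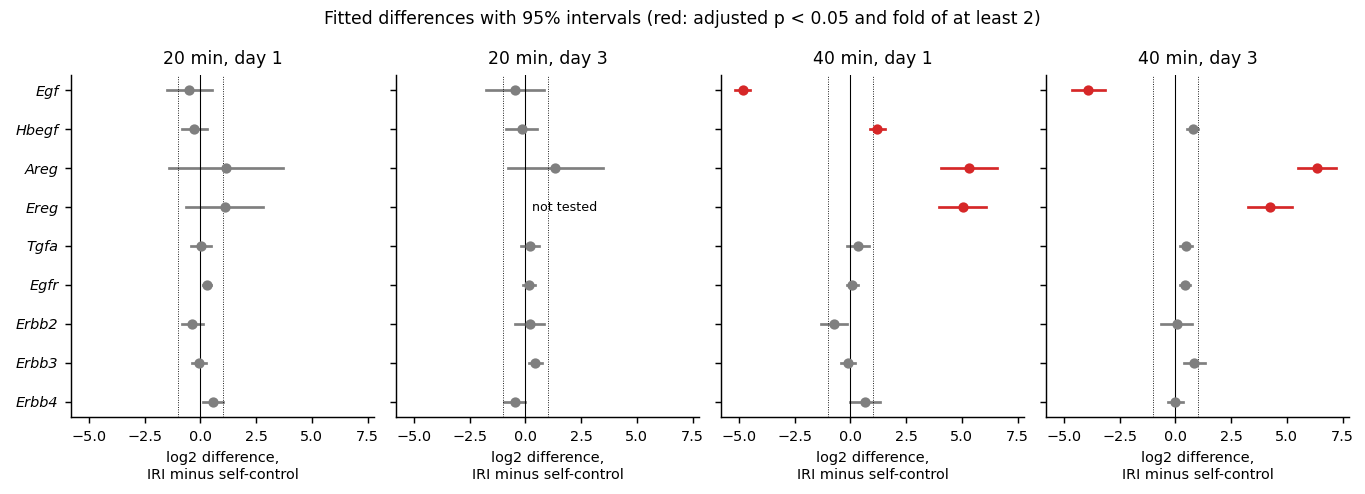
Fitted log2 difference between IRI and self-control kidneys for each member (points) with its 95% interval (lines), in the 4 comparisons of 6 against 6 kidneys. Red marks members past the thresholds, Areg and Ereg included, whose listing required a difference. After 40-min IRI, Egf lies at -4.83 and -3.91 and Areg at 5.33 and 6.34 on days 1 and 3, while no member is red after 20-min IRI.

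Egf, the main EGFR ligand of the uninjured cortex, was almost lost after 40-min IRI. On day 1 it was 9.37, 12.2, 8.72, 6.61, 8.31 and 9.37 FPKM in the IRI kidneys of mice 1 to 6, against 237, 242, 309, 253, 187 and 331 FPKM in their self-controls. Every IRI kidney was far below every self-control, and the IRI values lay close together. The difference was -4.83 (log2, SE 0.154, limma, adjusted p = 4.68e-10), a 28.5-fold lower level. On day 3 the IRI kidneys held 18.3, 17.1, 11.7, 14.3, 65.6 and 13.7 FPKM, against 256, 259, 365, 292, 316 and 247 FPKM. The groups again did not overlap, and the IRI kidney of mouse 5 was several times above the other IRI kidneys. The difference was -3.91 (log2, SE 0.340, adjusted p = 7.83e-07), 15.1-fold lower, and -4.24 without mouse 5. Between the days, Egf in 40-min IRI kidneys was 1.09 higher on day 3 on the log2 scale (two-sided exact permutation test of 6 against 6, p = 0.00433, adjusted p = 0.0173 over the 6 comparisons of days made in these kidneys). Those 6 were of Egf, Hbegf, Erbb3, Areg, Ereg and the ratio of Areg to Ereg, and the other members were not compared. The adjusted value thus also depends on Areg and Ereg, for which no p is given. The difference of the fold changes against self-controls, 0.92 (SE 0.392), was not called (limma, adjusted p = 0.117).

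The fall was shared by both deposited transcripts. The full-length Egf-201 was 6.28 to 11.9 FPKM on day 1 and 7.57 to 63.3 on day 3 after 40-min IRI, against 179 to 320 and 178 to 354 FPKM in self-controls. The shorter Egf-209, which starts inside the gene and keeps the same EGF stretch, was 0.0627 to 3.09 and 0.251 to 7.62 FPKM, against 7.60 to 11.3 and 9.73 to 75.2. Differences were -4.90 and -4.11 for Egf-201 and -4.99 and -3.40 for Egf-209 (log2, days 1 and 3), and all 4 were called (adjusted p = 8.09e-09, 1.69e-05, 0.000154 and 0.0207). Over all transcripts, 15.4% of 33286 on day 1 and 13.8% of 33287 on day 3 were called in either direction after 40-min IRI, and 0.405% of 33046 and 1.87% of 32956 after 20-min IRI, where no member transcript was called. In 4 kidneys of the other groups, Egf-209 stood at 69.1 to 79.2 FPKM (20-min IRI day 3 mouse 2, and self-controls of 20 min day 3 mouse 5 and of 40 min day 3 mice 1 and 6). The Egf sums of those kidneys were 238 to 307 FPKM, and the comparisons of Egf use the sum.

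Egf fell more than 9 of 10 markers of the segments known to make it. On day 1 after 40-min IRI, 4 of 5 distal convoluted tubule markers and 3 of 5 thick ascending limb markers were called lower, with medians of -1.17 and -1.22 (log2), beside 7.39% of all genes. Markers of the proximal tubule, which is not known as a main source of Egf, were called lower in 6 of 7 on day 1 (median -1.76, summed level 618 to 1159 FPKM against 2204 to 2605) and in 5 of 7 on day 3 (median -1.49, beside 5.98% of all genes). Slc12a3, the thiazide-sensitive salt cotransporter of the distal convoluted tubule, was 36.3 to 84.0 FPKM against 108 to 154 FPKM. Umod, the urinary protein of the thick ascending limb, was 421 to 763 FPKM against 454 to 695 FPKM, and these groups overlapped. Within mice, the log2 ratio of left to right kidney was lower for Egf than for Slc12a3 by 3.87 (SD 0.603) and than for Umod by 4.88 (SD 0.384), in 6 of 6 mice each. The same held in 6 of 6 mice for 9 of the 10 markers on each day (two-sided exact sign-flip test, p = 0.03125, which is the lowest value possible with 6 mice, adjusted p = 0.0347 on day 1 and 0.0312 on day 3 over the 10 markers). The exception was Pvalb, the calcium-binding protein parvalbumin of the early distal convoluted tubule. Its difference of -4.89 on day 1 was close to that of Egf (Egf minus Pvalb 0.06, SD 1.36, exact sign-flip p = 0.96875), and on day 3 Pvalb fell more than Egf in 6 of 6 mice, with a difference of -9.82 (log2, with IRI kidneys listed at 0, so that the size depends on the pseudocount). In bulk cortex, fewer cells of a segment and less RNA per cell cannot be told apart.

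**Figure D2:**
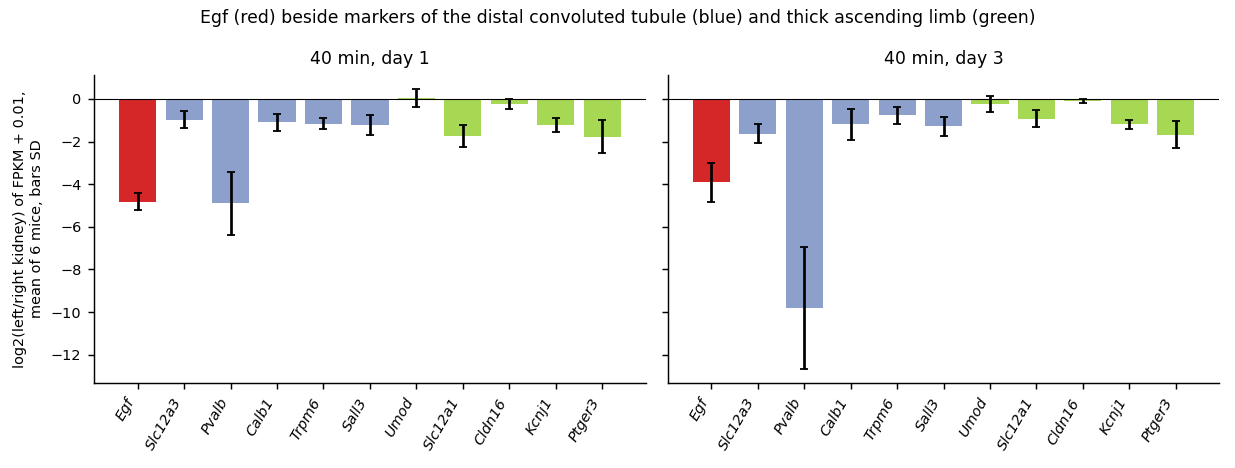
Mean log2 ratio of left (40-min IRI) to right (self-control) kidney over 6 mice on days 1 and 3, with SD bars, for Egf (red), 5 distal convoluted tubule markers (blue) and 5 thick ascending limb markers (green). Egf at -4.83 on day 1 lies far below Slc12a3 (-0.97) and Umod (0.05), and only Pvalb lies as low (-4.89, and -9.82 on day 3, where its size depends on the pseudocount of 0.01 FPKM).

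Areg (amphiregulin), a low-affinity EGFR ligand, had signal in every kidney after 40-min IRI and in nearly no self-control. It was 0.430, 0.468, 0.410, 0.551, 0.532 and 1.23 FPKM in the IRI kidneys of day 1, and was listed at 0 in 5 self-controls and at 0.0684 FPKM in that of mouse 6. On day 3 it was 0.537, 0.593, 0.944, 0.495, 0.943 and 1.88 FPKM in IRI kidneys and was listed at 0 in all 6 self-controls. No IRI kidney overlapped a self-control on either day. The fitted differences were 5.33 (log2, SE 0.584) and 6.34 (SE 0.388), and they depend on the pseudocount because the self-controls are at 0. With 1 FPKM as the pseudocount they were 0.65 and 0.89. In estimated read pairs summed over the 6 kidneys of a group, day 1 held 59 in the IRI kidneys and 1 in the self-controls. Any ratio would rest on that 1 read pair and on the rough estimate of depth, so none is given.

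Ereg (epiregulin), a ligand of Egfr and Erbb4, was likewise near 0 in self-controls. It was 0.370, 0.365, 0.425, 0.294, 0.796 and 0.258 FPKM in IRI kidneys of day 1 and 0.188, 0.195, 0.293, 0.140, 0.277 and 0.247 FPKM on day 3. Self-controls were listed at 0 except for 0.0233 FPKM in mouse 4 of day 1 and 0.0208 FPKM in mouse 3 of day 3. Again no kidneys overlapped. The fitted differences were 5.03 (log2, SE 0.486) and 4.23 (SE 0.456), or 0.49 and 0.28 with 1 FPKM as the pseudocount. The estimated read pairs, summed over the kidneys of a group, were 140 to 1 on day 1 and 71 to 1 on day 3. As for Areg, no ratio is given.

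The ratio of Areg to Ereg in 40-min IRI kidneys was 0.668 to 4.76 (median 1.22) on day 1 and 2.85 to 7.58 (median 3.32) on day 3, so that 5 of 6 kidneys of day 1 were below all of day 3. The mean log2 ratio was 1.37 higher on day 3, with Ereg at -0.82 and Areg at 0.52 (log2, day 3 minus day 1). Ereg was listed through a kidney of day 1, so these are given with no test.

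Markers of several cell types were higher than in self-controls after 40-min IRI, when Areg and Ereg were high. Over all genes, 15.7% were called higher on day 1 and 15.3% on day 3. Of 7 macrophage markers, 6 were called higher on both days after 40-min IRI, and their summed level was 82.0 to 310 and 166 to 313 FPKM on days 1 and 3, against 34.4 to 63.8 and 27.3 to 47.2 FPKM in self-controls. Of 5 neutrophil markers measured, 5 were called higher on day 1 (summed level 18.3 to 53.5 FPKM against 2.85 to 14.8) and 4 on day 3 (8.10 to 16.01 against 2.07 to 11.8). Fibroblast markers were called higher in 4 of 5 on day 1 (74.0 to 417 FPKM against 29.9 to 61.7) and in 5 of 5 on day 3 (153 to 321 against 40.0 to 44.5), and injured proximal tubule markers in 5 of 5 on both days (summed level 675 to 2242 and 580 to 813 FPKM, against 3.13 to 13.6 and 6.39 to 10.4). Of 5 urothelium markers, 1 (Krt5) was called higher on day 1 and 2 (Krt5 and Upk1b) on day 3, with medians of 1.86 and 2.29 (log2) and a summed level of 1.67 to 6.74 and 0.912 to 9.95 FPKM against 0.183 to 2.53 and 0.214 to 2.84. For urothelium, the 1 of 5 on day 1 is near the share of all genes. Between injured kidneys, Upk2 of that list was called lower after 40-min than after 20-min IRI on day 1, and Krt5 higher on day 3. No measured marker of these 5 lists was listed at 0 in all 6 kidneys of a 40-min group. For mast cells, basophils and group 2 innate lymphoid cells only Kit and Gata3 of 6 markers were measured, and neither was called. Cpa3, Mcpt4, Tpsb2 and Il1rl1 were absent from the gene features, so they could not be followed. The part of any of these cell types in the levels of Areg, Ereg and Hbegf was not tested.

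Hbegf, the heparin-binding ligand of Egfr and Erbb4, rose on day 1 after 40-min IRI. It was 18.4, 16.02, 22.7, 18.3, 21.3 and 20.2 FPKM in IRI kidneys against 7.97, 9.81, 6.92, 6.97, 7.20 and 12.5 FPKM in self-controls. Every IRI kidney was above every self-control. The difference was 1.21 (log2, SE 0.149, adjusted p = 1.61e-05), 2.32-fold, and with every library set to the same median it was 0.99, just under the fold of 2. On day 3 IRI kidneys held 14.8, 21.8, 20.8, 15.7, 21.3 and 23.4 FPKM against 12.6, 11.1, 11.2, 11.9, 10.9 and 10.1 FPKM. The groups did not overlap, but the difference of 0.78 (SE 0.114, adjusted p = 7.43e-05) was under the fold of 2. Between the days, Hbegf in 40-min IRI kidneys differed by -0.003 on the log2 scale (two-sided exact permutation test, p = 0.98268).

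On day 1 after 40-min IRI, Hbegf was more abundant than Egf in every kidney. Egf exceeded Hbegf 15.96 to 60.2 times in all 24 self-control kidneys. In 40-min IRI kidneys the ratio of Egf to Hbegf was 0.361 to 0.762 on day 1, with Hbegf above Egf in 6 of 6, and 0.561 to 3.08 on day 3, with Hbegf above Egf in 4 of 6. The ratio ranges of 40-min IRI and self-control kidneys did not meet. After 20-min IRI the ratio spread from 2.22 to 87.3 on day 1 and from 1.05 to 84.3 on day 3, and Egf was the higher in all 12 kidneys.

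**Figure D3:**
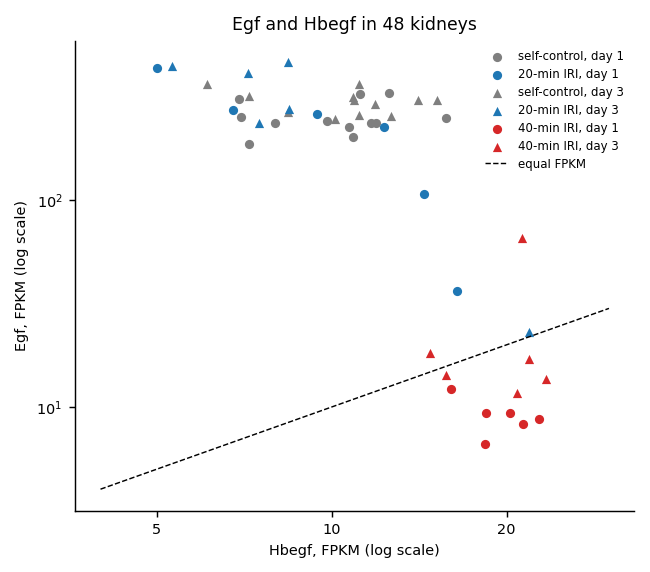
Egf against Hbegf in each of the 48 kidneys, both in FPKM on log scales, with circles for day 1, triangles for day 3 and a dashed line where both are equal. Self-control kidneys lie at 187 to 367 FPKM of Egf, and 10 of 12 kidneys after 40-min IRI lie below the line.

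Tgfa, an EGFR ligand of many epithelia, was not called. It was 1.33 to 2.11 FPKM on day 1 after 40-min IRI against 0.753 to 1.99 in self-controls, with overlap (0.34, SE 0.235, adjusted p = 0.231). On day 3 it was 1.87, 1.95, 1.99, 2.02, 2.46 and 2.28 FPKM against 1.59, 1.60, 1.83, 1.14, 1.53 and 1.41 FPKM. These groups did not overlap and the adjusted p was 0.00802, but the difference of 0.47 (SE 0.131) was under the fold of 2, and with every library set to the same median it was 0.31 (adjusted p = 0.0508).

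**Figure D4:**
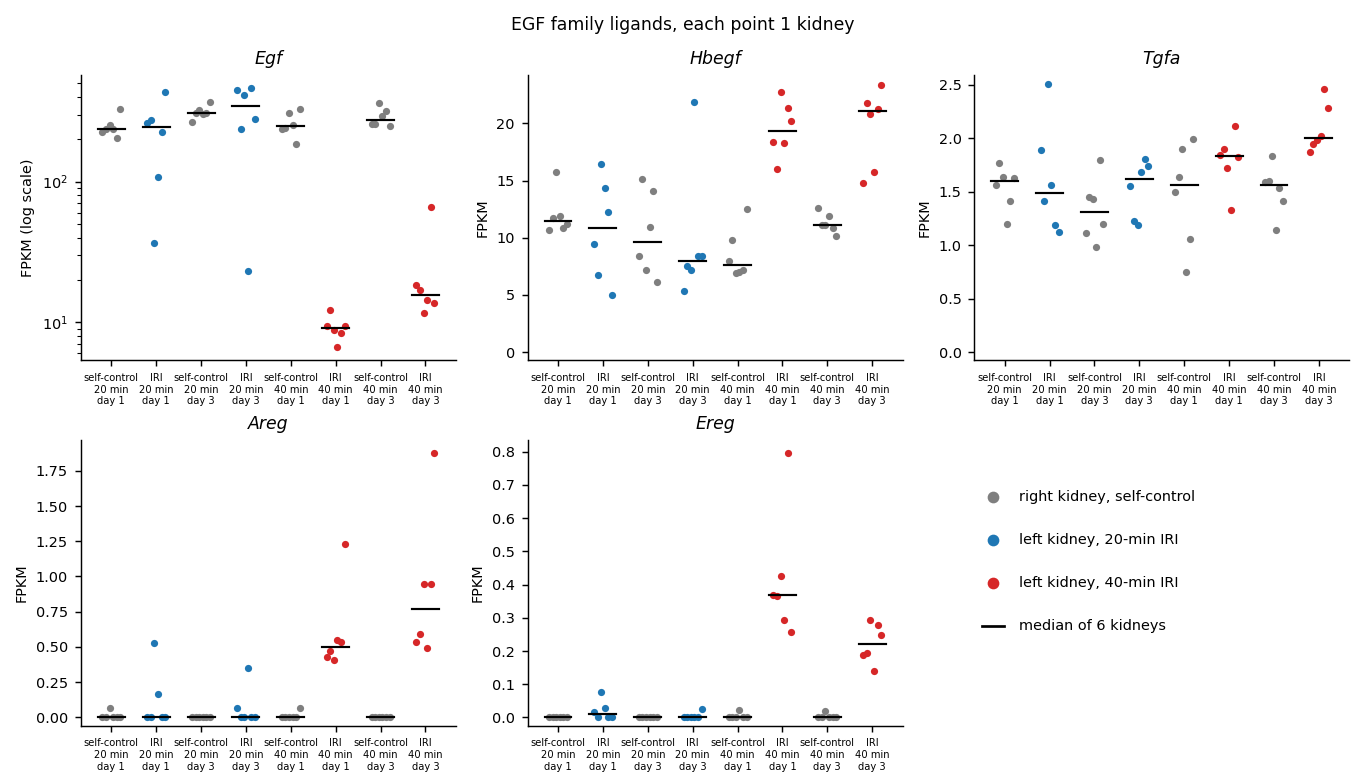
FPKM of each ligand in each kidney (points) with the median of 6 kidneys (bars), by kidney, ischemia time and day. Egf is on a log scale and the other axes start at 0. The 40-min IRI kidneys (red) lie below all self-controls for Egf, at most 65.6 FPKM, and above all of them for Areg and Ereg.

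Of the 4 receptors, none was called in any comparison of IRI with self-control. Egfr, the receptor of all 5 ligands, was 9.04 to 14.7 FPKM on day 1 after 40-min IRI against 9.93 to 11.8 (0.09, SE 0.120, adjusted p = 0.551, and -0.13 with every library set to the same median). On day 3 it was 9.92, 9.17, 12.9, 13.2, 12.7 and 11.9 FPKM against 9.95, 7.88, 8.13, 7.73, 8.98 and 8.79 FPKM. There 4 IRI kidneys were above all self-controls, and the difference was 0.43 (SE 0.104, adjusted p = 0.00334), under the fold of 2. After 20-min IRI on day 1 Egfr was 0.30 higher (SE 0.075, adjusted p = 0.0366), also under that fold, and the adjusted p was 0.0837 with the mouse as a replicate block. Egfr-202, a shorter transcript whose annotated protein is 655 residues against 1210 for the full-length transcript, was 1.29 to 7.83 FPKM over all kidneys in 40-min groups and split groups into high and low kidneys. On day 1 after 40-min IRI Egfr-202 was 1.37, 7.51, 1.43, 1.67, 3.99 and 7.83 FPKM. Its differences after 40-min IRI were -0.73 on day 1 and 0.955 on day 3 (limma over all transcripts, adjusted p = 0.281 and 0.0258). Those of the full-length Egfr-201 were 0.43 and 0.24 (adjusted p = 0.0126 and 0.134). All were under the fold of 2, and the 2 transcripts did not follow the same course, so the sum does not give that of Egfr-201.

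Erbb2, the partner receptor, also had high and low kidneys within groups. In self-controls of the 40-min model it was 8.25, 7.13, 15.1, 11.2, 7.64 and 16.9 FPKM on day 1 and 15.2, 5.48, 6.75, 5.62, 14.2 and 14.2 FPKM on day 3. In IRI kidneys of that model it was 4.77, 5.34, 12.8, 4.86, 6.13 and 6.16 FPKM on day 1, where 5 of 6 were below all self-controls, and 7.60, 11.6, 12.3, 7.59, 15.3 and 6.44 FPKM on day 3, where the groups overlapped. The day 1 difference was -0.74 (SE 0.276, adjusted p = 0.0349), under the fold of 2, and the day 3 difference was 0.06 (SE 0.320, adjusted p = 0.891).

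Erbb3, the neuregulin receptor and the most abundant of the 4, differed between the days after 40-min IRI. On day 1 after 40-min IRI it was 12.1 to 21.9 FPKM against 14.6 to 21.97 in self-controls (-0.10, SE 0.148, adjusted p = 0.597). On day 3 it was 46.5, 26.9, 23.0, 46.2, 25.1 and 19.4 FPKM against 16.5, 16.04, 22.1, 17.2, 13.01 and 15.2 FPKM. Mice 1 and 4 stood far above the rest, and 5 of 6 IRI kidneys were above all self-controls. The difference was 0.84 (SE 0.217, adjusted p = 0.00509), under the fold of 2. The difference of the fold changes between the days after 40-min IRI, 0.93 (SE 0.273), was called (limma, adjusted p = 0.0272), and Erbb3 was the only member called there, where 13.9% of 14297 genes were called in either direction (814 higher and 1172 lower, or 942 and 798 with every library set to the same median). Without mice 1 and 4, left out after their values were seen, it was 0.62 (adjusted p = 0.107), so the call rests on them. In 40-min IRI kidneys themselves Erbb3 was 0.86 higher on day 3 than on day 1 (log2, exact permutation p = 0.00649, adjusted p = 0.0173 over the same 6 comparisons as for Egf, those of Areg and Ereg included). After 20-min IRI on day 3 Erbb3 was 0.45 higher (SE 0.136, adjusted p = 0.0371, under the fold of 2), and the adjusted p was 0.0536 with the mouse as a replicate block.

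Erbb4, the receptor of neuregulins and of Hbegf, was the lowest receptor and was not called. It was 1.86 to 3.33 FPKM against 0.897 to 3.30 on day 1 and 1.63 to 2.41 against 1.38 to 2.30 on day 3 after 40-min IRI (0.65, adjusted p = 0.094, and -0.001, adjusted p = 0.996). After 20-min IRI the differences were 0.57 on day 1 and -0.48 on day 3 (adjusted p = 0.113 and 0.150). The 2 deposited transcripts of Erbb4 were each listed at 0 in kidneys in which the other had signal, so that only their sum was read.

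**Figure D5:**
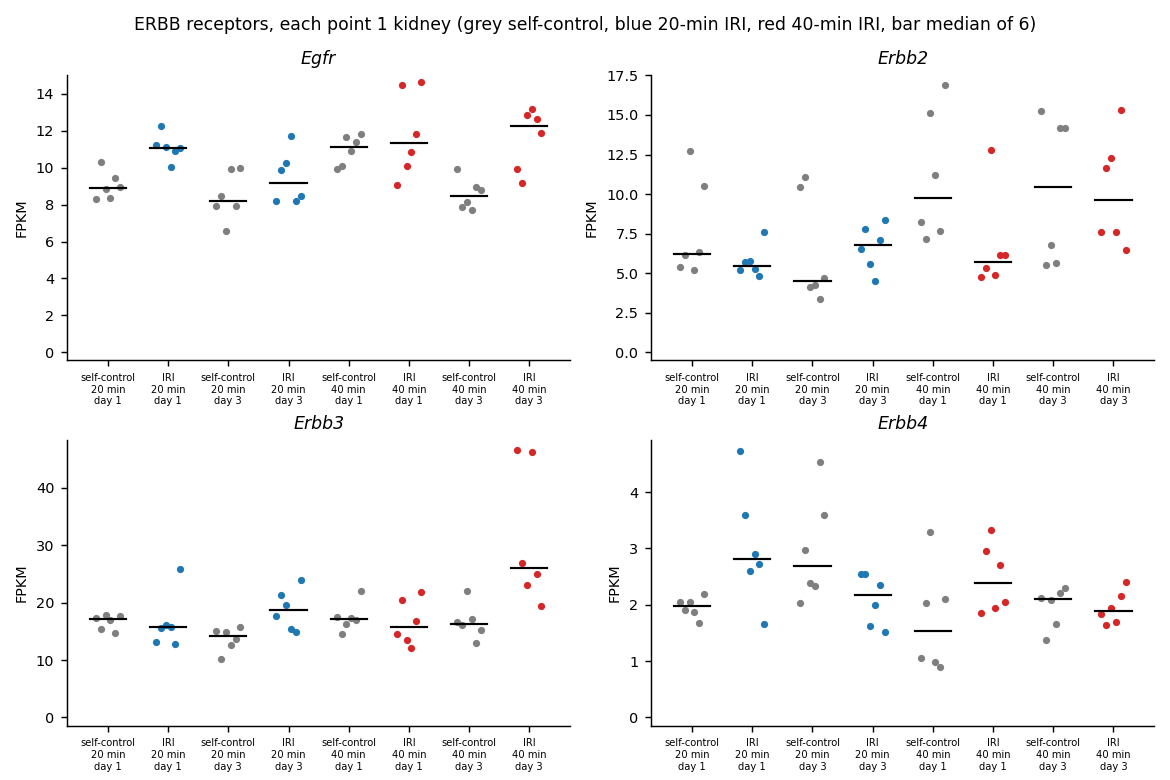
FPKM of the 4 receptors in each kidney (points) with the median of 6 kidneys (bars), by kidney, ischemia time and day, on axes that start at 0. Erbb3 on day 3 after 40-min IRI has kidneys at 46.5 and 46.2 FPKM, and Erbb2 falls into high and low kidneys within several groups.

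In the mild model the IRI kidneys varied widely. On day 1 Egf was 261, 275, 36.5, 108, 225 and 436 FPKM in IRI kidneys, against 203 to 327 FPKM in self-controls (-0.49, SE 0.474, adjusted p = 0.545). On day 3 it was 448, 238, 416, 23.0, 467 and 278 FPKM, against 267 to 367 FPKM (-0.46, SE 0.606, adjusted p = 0.652). Mouse 3 of day 1 and mouse 4 of day 3 were lowest in Egf, and 3 of 6 IRI kidneys of day 3 were above all self-controls. Without mouse 4, the day 3 difference was 0.19 in place of -0.46 (adjusted p = 0.504).

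These kidneys were also high in Areg and Hbegf. Areg was 0.527 FPKM in mouse 3 and 0.169 in mouse 4 of day 1, and 0.350 in mouse 4 and 0.0658 in mouse 1 of day 3, and was listed at 0 in the other 8 IRI kidneys. Hbegf was 16.4 and 14.4 FPKM in mice 3 and 4 of day 1 and 21.8 in mouse 4 of day 3, beside 4.999 to 12.3 in the other IRI kidneys of the mild model. Ereg was 0.0761 and 0.0292 FPKM in mice 3 and 4 of day 1, but was listed at 0 in mouse 4 of day 3. The keratin gene Krt20 was 39.04, 15.8 and 107 FPKM in these 3 kidneys and 0.334 to 7.20 in the other 9. As this describes kidneys picked out by their values, it was not tested.

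Between the injured kidneys of the 2 models on day 1, 40-min IRI kidneys had less Egf (-4.28, SE 0.478, adjusted p = 7.79e-05) than 20-min IRI kidneys. The fitted differences of Areg and Ereg were 4.17 (SE 1.01) and 4.23 (SE 0.622). With these 2 counted, 2 members were past the thresholds upward and 1 downward, beside 7.82% and 5.88% of 14276 genes. Without the 20-min IRI kidney of mouse 3, the Areg difference was 4.99. Hbegf was 0.97 higher (SE 0.255, adjusted p = 0.00953), just under the fold of 2, which it passed without mouse 3, 4 or 5 of the 20-min or mouse 2 of the 40-min model (1.03 to 1.12). On day 3 Hbegf was higher (1.15, SE 0.275, adjusted p = 0.00765) and Egf was lower (-3.57, SE 0.686, adjusted p = 0.0022), while Areg and Ereg had fitted differences of 4.99 (SE 0.886) and 4.19 (SE 0.523). Those 3 upward, Areg and Ereg included, and 1 downward stand beside 9.82% and 2.32% of 14284 genes. As Areg and Ereg were listed through their IRI kidneys, nothing is read from the counts of either day. Without the 20-min IRI kidney of mouse 4, the Areg difference was 5.76 and that of Egf -4.23, and with every library set to the same median that of Hbegf was 0.98, under the fold of 2. That scaling moved the calls over all genes on day 3 from 1403 higher and 332 lower to 1134 and 477. The comparison of injured kidneys shares no self-controls, but shares its IRI kidneys with the comparisons above.

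The fold change against self-controls differed between the models on day 1 for Hbegf (40 min minus 20 min 1.48, log2, SE 0.309, adjusted p = 0.000992) and Egf (-4.35, SE 0.524, adjusted p = 4.4e-06), where 29.8% of 14298 genes were called in either direction. For Areg and Ereg the fitted values were 4.17 (SE 1.29) and 3.94 (SE 0.780). The Hbegf difference also holds self-controls that were 0.51 lower in the 40-min than in the 20-min model on day 1 (log2, two-sided exact permutation test, p = 0.01948, adjusted p = 0.117 over 18 comparisons of self-controls). On day 3, with 29.4% of 14301 genes called, it differed for Egf (-3.45, SE 0.733, adjusted p = 0.00117), and the fitted values of Areg and Ereg were 4.99 (SE 0.984) and 3.92 (SE 0.645). For Hbegf the day 3 difference of 0.94 (SE 0.356) missed the threshold (adjusted p = 0.0509) and passed it with the mouse as a replicate block (adjusted p = 0.047). Without the 2 mild kidneys that stood apart, the Egf difference on day 3 was -4.11 and that of Hbegf 1.201 (adjusted p = 0.00118). With every library set to the same median, the calls moved from 2638 higher and 1621 lower to 2009 and 2008 on day 1 and from 2915 and 1286 to 2091 and 1944 on day 3. Between the days of the mild model no fold change of a member was called. Over all genes, 0.0841% of 14271 were called (12 genes, and 0 with every library set to the same median). An unadjusted p under 0.05 was reached by 2 of 8 members (Erbb3 and Erbb4) and by 2013 of the 14271 genes (limma).

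Among other ligands of the ERBB receptors, 3 of 6 were measured (Btc, Nrg1 and Nrg4). Btc (betacellulin) fell after 40-min IRI, to 2.13 ± 0.547 FPKM (SD, n = 6) from 5.24 ± 1.21 on day 1 and to 2.24 ± 0.359 from 4.99 ± 0.559 on day 3 (-1.30 and -1.16, limma, adjusted p = 7.71e-05 and 6.72e-06). Its self-controls in the 20-min model were at 3.02 ± 0.444 and 3.51 ± 1.25 FPKM, and between injured kidneys of the 2 models it was not called (-0.33 and -0.17, adjusted p = 0.201 and 0.559). Nrg1, a neuregulin that binds Erbb3 and Erbb4, rose to 11.3 ± 2.81 FPKM from 2.81 ± 0.623 on day 1 and to 6.71 ± 1.39 from 2.71 ± 0.700 on day 3 (2.002 and 1.32, adjusted p = 4.33e-06 and 4.55e-05). Nrg4 was under 0.6 FPKM in every 40-min kidney and was not called. No gene of this list was called after 20-min IRI.

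Genes that cut and process the ligands were higher or were not called. Of 8 listed, 7 were measured, and after 40-min IRI 3 were called higher on day 1 and 2 on day 3, none lower, beside 15.7% and 15.3% of all genes higher, with medians of 0.64 and 0.70 beside 0.24 and 0.16 over all genes. Adam12, a metalloprotease that can release Hbegf, rose from 0.421 ± 0.0908 to 6.02 ± 1.34 FPKM on day 1 (3.801, adjusted p = 8.2e-09) and from 0.425 ± 0.0828 to 3.88 ± 1.37 on day 3 (3.07, adjusted p = 2.09e-06). Rhbdf2 (iRhom2), which guides Adam17 to the surface, rose from 2.81 ± 0.675 to 6.72 ± 0.891 and from 2.50 ± 0.539 to 7.86 ± 1.08 FPKM (1.28 and 1.66, adjusted p = 1.15e-05 and 8.68e-07). Adam10, which sheds Egf and Btc, was 0.64 and 0.79 higher, under the fold of 2 (adjusted p = 3.09e-05 and 3.4e-07).

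No gene of the list of receptor inhibitors and turnover was called in any comparison of IRI with self-control (10 of 10 measured, medians 0.39 and 0.18 after 40-min IRI). Errfi1, which inhibits EGFR and is induced by its signaling, was 206 ± 92.2 against 157 ± 29.2 FPKM on day 1 (0.33, adjusted p = 0.212) and 367 ± 50.7 against 220 ± 30.7 FPKM on day 3 (0.74, adjusted p = 6.79e-05, under the fold of 2). The ubiquitin ligases Cbl and Cblb, which send receptors to degradation, were 0.54 and 0.94 higher on day 1 (adjusted p = 0.000286 and 0.000937) and 0.31 and 0.97 higher on day 3 (adjusted p = 0.025 and 0.000194), also under that fold.

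Of 18 adaptors and kinases, 5 were called higher on day 1 and 3 on day 3 after 40-min IRI, and none lower, beside 15.7% and 15.3% of all genes higher, with medians of 0.35 and 0.32 beside 0.24 and 0.16 over all genes. The 3 of 18 on day 3 are near the share of all genes. Shc1, an adaptor of activated receptors, rose from 12.1 ± 0.616 to 30.9 ± 2.36 FPKM on day 1 and from 12.2 ± 0.680 to 27.02 ± 3.77 on day 3 (1.35 and 1.14, adjusted p = 7.72e-09 and 4.26e-07). Nras rose by 1.94 and 1.19 (adjusted p = 1.34e-05 and 2.98e-07). Akt1 rose by 1.18 on day 1 (adjusted p = 3.73e-07) and was 0.75 higher on day 3, under the fold of 2 (adjusted p = 1.46e-06).

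Of 17 feedback and target genes of ERK, 9 were called higher on day 1 and 6 on day 3 after 40-min IRI, none lower, with medians of 1.29 and 0.73. These 9 and 6 of 17 stand beside the 15.7% and 15.3% of all genes called higher, and the medians beside 0.24 and 0.16 over all genes. Dusp5, a nuclear phosphatase of ERK, rose from 0.557 ± 0.195 to 8.93 ± 2.41 FPKM on day 1 and from 0.792 ± 0.298 to 5.40 ± 0.880 on day 3 (3.998 and 2.82, adjusted p = 2.98e-08 and 3.37e-07). Dusp4, of the same family, rose from 3.11 ± 0.859 to 10.8 ± 0.968 and from 3.81 ± 0.701 to 10.45 ± 1.03 FPKM (1.83 and 1.47, adjusted p = 7.12e-07 and 3.67e-07). Spred3, an inhibitor of the RAS-ERK cascade, rose by 2.72 and 1.95 (adjusted p = 5.43e-08 and 2.66e-06). After 20-min IRI no gene of this list was called on day 1 and 2 were called higher on day 3. Of all genes, 1.19% and 2.34% were called higher there. These genes answer to many stimuli besides EGFR ligands, and the part of EGFR signaling in them was not tested.

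In the distal convoluted tubule, EGF is known to promote magnesium uptake through the channel Trpm6. After 40-min IRI Trpm6 fell to 1.65 ± 0.2998 from 3.72 ± 0.747 FPKM on day 1 (-1.17, adjusted p = 6.26e-05), and was 2.38 ± 0.324 against 4.10 ± 0.812 on day 3 (-0.77, adjusted p = 0.000493, under the fold of 2). Cnnm2, a basolateral magnesium transport protein, was 0.94 and 0.90 lower in these groups (differences of -0.94 and -0.90, adjusted p = 3.35e-05 and 1.52e-06), under the fold of 2, and the widely expressed channel Trpm7 differed by -0.10 and -0.14 (adjusted p = 0.595 and 0.416). Trpm6 is also one of the distal convoluted tubule markers above.

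For each member past the thresholds in a comparison of IRI with self-control, the 2 genes with the most similar pattern of group means were found among 11834 genes that averaged 1 FPKM or more, by the root mean square difference of the centered log2 means over the 8 groups. For Egf they were the transporters Slco4c1 (0.18) and Slc22a13 (0.25), which differed by -4.90 and -4.50 on day 1 after 40-min IRI. For Areg they were F13a1 (0.24), the coagulation factor XIII A chain, and Itgam (0.47), the integrin CD11b of myeloid cells. For Ereg they were Nrcam (0.34) and Tnc (0.39), for the adhesion molecule NrCAM and the matrix protein tenascin C. For Hbegf they were Antxr2 (0.12), an anthrax toxin receptor, and Rcsd1 (0.14). For Areg and Ereg the self-control means lie at or near the pseudocount of 0.01 FPKM, so which genes match them depends on that choice. These are descriptions over 8 group means and were not tested.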

How the data were processed

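RNA from the renal cortex of 48 kidneys was sequenced by the authors, 6 per group. Per the labels and methods, reads were aligned to GRCm38 with HISAT2 2.1.0 after FastQC 0.11.7, and the authors deposited FPKM per Ensembl transcript, made with Ballgown 2.10.0. The FPKM scale divides by library total, so a large rise in some genes lowers the rest. Of 33953 transcripts, 33871 were named through GENCODE M21 and summed per symbol to 14320 features. Groups came from the labels.

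Log2(FPKM + 0.01) was fitted with limma 3.58.1 in R 4.3.3 (empirical Bayes with trend) on genes averaging 0.01 FPKM or more over the kidneys of each comparison, with Benjamini-Hochberg adjustment over all of them. Comparisons of IRI with self-control, and of 40-min with 20-min IRI, needed an adjusted p below 0.05 and a change of 2-fold or more to be called, and differences of fold changes needed the adjusted p alone. Single values were compared with two-sided exact permutation or sign-flip tests. The fit was tested on simulated data.

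Left and right kidneys with the same number came from 1 mouse per the labels. The median correlation of their deviations from the group means was 0.017, 0.045, 0.052 and -0.002 (20 min day 1 and 3, 40 min day 1 and 3), and the main fit has no mouse block because the study's methods state none.

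All members and their transcripts were named, the 3 genes of smallest adjusted p from each pathway list, and the 2 genes of most similar pattern for each member past the thresholds in a comparison of IRI with self-control. Adam17 was named in addition, beside Rhbdf2. The members and lists were chosen with earlier results of these data known. Alternatives were other pseudocounts, filters, scaling, transcript choice, variance models, the mouse block and leaving out mice. Read pairs were estimated from the steps between low FPKM values. Promoter sequences are from RefSeq (GRCm38.p6).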

Additional observations from a re-analysis of the deposited data

Results flagged for a closer look

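In 16 of 68 sets of 6 kidneys tested, the highest or lowest kidney lay apart from the other 5 (gap over range above Dixon's 95% critical value, which chance passes in about 1 in 20 sets). For genes at or near 0 in most kidneys, 1 kidney with a few reads is enough to pass it.

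Egf on day 3 after 40-min IRI was 65.6 FPKM in mouse 5, against 11.7 to 18.3 in the others. Hbegf was 21.8 FPKM in mouse 4 of the 20-min IRI kidneys of day 3 (others 5.32 to 8.45), which also had the least Egf of its group, and 15.7 FPKM in the self-control of mouse 3 of 20 min day 1 (others 10.7 to 11.9).

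Areg stood apart in 4 IRI groups. It was 0.527 FPKM in mouse 3 on day 1 and 0.350 in mouse 4 on day 3 after 20-min IRI (others at most 0.169 and 0.0658), and 1.23 in mouse 6 on day 1 and 1.88 in mouse 6 on day 3 after 40-min IRI (others at most 0.551 and 0.944). The lone Areg values of 0.0653 and 0.0684 FPKM among self-controls were each worth about 1 read pair. Ereg was 0.796 FPKM in mouse 5 on day 1 after 40-min IRI (others 0.258 to 0.425). The lone Ereg values were 0.0264 FPKM on day 3 after 20-min IRI and 0.0233 and 0.0208 FPKM in the self-controls of 40 min day 1 and day 3.

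Of the receptors, Erbb2 was 7.57 FPKM in mouse 6 on day 1 after 20-min IRI (others 4.81 to 5.75) and 12.8 in mouse 3 on day 1 after 40-min IRI (others 4.77 to 6.16). Erbb3 was 25.8 FPKM in the first of these 2 kidneys (others of its group 12.8 to 16.1).

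The fold change against self-controls differed between the 40-min and the 20-min model (limma, adjusted p under 0.05) on day 1 for Egf (-4.35 on the log2 scale) and Hbegf (1.48), and on day 3 for Egf (-3.45). For Areg (4.17 and 4.99 on days 1 and 3) and Ereg (3.94 and 3.92) the fitted values are descriptions with no p. Both are listed only through IRI kidneys in which they were high. Between the days of the 40-min model the fold change differed for Erbb3 (0.93).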

How the results depend on the processing

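Of 1231 recomputed values, 1209 kept their side of the threshold and 0 called values reversed. Of 319 recomputations of the 22 member results past the thresholds, Areg and Ereg included, 308 were still past them. A difference was a condition of listing Areg and Ereg, so for them these counts show nothing, and no count was made without them. Among the other members, Hbegf fell under the fold of 2 with equal library medians (0.99 on day 1 after 40-min IRI, 0.98 between injured kidneys on day 3). The Erbb3 difference between the days (0.62) was not called without mice 1 and 4. With a pseudocount of 1 FPKM, or with only genes of a mean of at least 1 FPKM, the members past the thresholds fell from 4 to 2 (Egf and Hbegf) on day 1 after 40-min IRI, from 3 to 1 (Egf) on day 3, from 3 to 1 (Egf) between 40-min and 20-min IRI on day 1 and from 4 to 2 (Egf and Hbegf) on day 3. In the first setting Areg and Ereg stayed under the fold of 2, and in the second they were not tested, which also took the difference of fold changes on day 1 from 4 members to 2. The pseudocount of 1 FPKM gave 1210 higher and 632 lower genes on day 1 and 1147 and 453 on day 3 after 40-min IRI, 72 and 34 on day 1 and 147 and 125 on day 3 after 20-min IRI, and 564 and 458, and 663 and 180, between the models on days 1 and 3. Without mice 1 and 4 of the 40-min model of day 3, a setting chosen after seeing the data, the members whose fold change differed between the days went from 1 to 0, and all genes from 814 higher and 1172 lower to 285 and 296. Hbegf passed the fold of 2 on day 3 after 40-min IRI there (1.01). The replicate block for the mouse changed no call other than that of Hbegf between the models on day 3 (adjusted p = 0.047), which also passed under 5 other settings. On day 1 after 20-min IRI the calls over all genes (170 higher and 63 lower) became 50 and 29 under the block, 94 and 58 with the highest transcript per gene, 411 and 75 with all 48 libraries in 1 fit, and ranged between 21 and 23 (without mouse 4) and 486 and 82 (without mouse 6) when each mouse was left out. Between the days of the mild model the 12 called genes became between 0 and, with all 48 libraries in 1 fit, 78 higher and 143 lower, with 0 members in each setting. Leaving out each mouse in turn gave Egf differences of -4.94 to -4.75 on day 1 and -4.24 to -3.70 on day 3 after 40-min IRI. Depth limits Areg and Ereg, for which 2 of 24 self-control kidneys each hold about 1 read pair and the others 0.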
